A study of Mus musculus with 9 samples.

Results

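The genes described here are the Myc family, its dimer partner and 2 of its antagonists, together with genes that build ribosomes in the nucleolus. They are 35 of the 20656 mouse genes that could be named on the array, and 15028 genes were bright enough to be tested. The 35 members came from a list of names that was chosen with earlier results of these data known. Their counts beside all genes are therefore a description and not a test. Their probes were found through the RefSeq accession that the array annotation gives each probe. The members are represented by 48 probes, and all 48 were well above background on all 9 arrays, so no member was lost to the filter on dim probes. Of the members, 25 had 1 probe and 10 had several, for which the brightest probe was used.

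The RNA was taken from cultures of 3 mouse embryonic stem (ES) cell lines, 1 with a PKM1 knock-in, 1 with a PKM2 knock-in and 1 wild type. PKM1 and PKM2 are the isoforms of the glycolytic enzyme pyruvate kinase M, made from the Pkm gene by alternative splicing. Each line was sampled undifferentiated in medium with the cytokine LIF (day 0), and as floating embryoid bodies kept without LIF for 3 or 7 days. There was 1 array for each line and day, hybridised with Cy3-labelled RNA of bulk cultures. Each genotype was 1 line, so an effect of a knock-in and a peculiarity of that line cannot be told apart. With 1 array for each line and day, comparisons of days and of lines shared 1 estimate of error, taken over all 9 arrays. It is the spread that remained after the average effects of line and day were taken out. The p-values below rest on this spread, and the labels do not say that the cultures were independent. A difference between lines in their response to the days could not be tested. In bulk RNA, fewer cells of a type and less RNA per cell cannot be told apart.

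Myc, Mycn and Mycl encode basic helix-loop-helix transcription factors that bind DNA as dimers with Max, at E-box sequences. Mxd1 and Mxd3 also pair with Max and oppose Myc at such sites. Among the best known targets of Myc are genes of ribosome biogenesis. RNA polymerase I transcribes the ribosomal RNA precursor in the nucleolus. Box C/D and H/ACA small nucleolar ribonucleoprotein particles (snoRNPs) then modify it, and large sets of processing factors cut it and assemble it into the small (40S) and large (60S) subunits. Pluripotent cells divide fast and are known for high Myc activity and active nucleoli.

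Across the arrays between 54.2% and 61.6% of probes were well above background, no spot was saturated, and between 133 and 225 of 62976 spots per array were left out for a quality flag. The probe of Pkm, the gene that the knock-ins concern, read 13.59, 14.74 and 13.94 log2 units at days 0, 3 and 7 in the PKM1 knock-in line. It read 13.80, 14.32 and 13.62 in the PKM2 knock-in line and 13.65, 16.12 and 14.68 in the wild-type line. Which isoform this probe detects is not given in the sources used here, so it does not check the labels. All 8 ES cell markers were well above background on every array. The arrays lay on 3 slides, which held 5, 3 and 1 arrays. Slide 1 held the PKM1 knock-in array of day 3, the PKM2 knock-in arrays of days 0 and 3 and the wild-type arrays of days 0 and 7. Slide 3 held only the PKM2 knock-in array of day 7, and slide 2 held the rest.

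Promoter sequence is shown for members whose differences at day 3 were large or which carry the sequence that Myc and Max dimers prefer. RefSeq promoter windows (mouse build GRCm38.p6, 250 bases before to 50 after a gene's start) were found for 28 of the 35 members, and not for Myc, Npm1, Fbl, Rrs1, Rrp12, Bop1 and Srm. The canonical E-box CACGTG, which is its own reverse complement, was present in 5 of 28 member genes (17.9%): Max, Nop2, Pes1, Utp20 and Wdr43. It was present in 8.09% of all 27025 genes with a window and in 11.2% of the 11939 such genes tested on the arrays. The variant CACGCG, or CGCGTG on the other strand, was present in 10 of 28 members (35.7%), against 10.5% of all genes and 18.3% of the genes tested. These 10 were Bysl, Ddx21, Mycl, Nhp2, Nip7, Noc2l, Nolc1, Nop16, Pes1 and Ppan, so Pes1 held both motifs. A match describes the letters of the window and does not show binding. The stretches below are 120 bases long and written 5′ to 3′ on the gene's strand, with either motif in capitals.
Nolc1, chr19:46075727-46075846, plus strand: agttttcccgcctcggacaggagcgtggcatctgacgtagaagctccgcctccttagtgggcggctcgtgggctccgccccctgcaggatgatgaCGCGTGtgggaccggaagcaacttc
Nhp2, chr11:51619662-51619781, plus strand: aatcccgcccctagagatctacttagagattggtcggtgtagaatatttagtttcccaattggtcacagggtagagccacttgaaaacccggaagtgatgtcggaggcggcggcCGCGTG
Ddx21, chr10:62602299-62602418, minus strand: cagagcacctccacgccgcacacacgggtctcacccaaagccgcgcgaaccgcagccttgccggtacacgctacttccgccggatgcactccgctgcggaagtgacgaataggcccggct
Nop2, chr6:125131763-125131882, plus strand: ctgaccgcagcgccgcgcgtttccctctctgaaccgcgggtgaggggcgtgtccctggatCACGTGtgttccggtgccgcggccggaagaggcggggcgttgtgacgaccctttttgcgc
Nolc1, Nhp2 and Ddx21 had the largest day 3 differences among the members with a window. In Nolc1 the variant began 25 bases before the gene's start. In Nhp2 it began 3 bases after the start, and that stretch was therefore extended to its end. The variant of Ddx21 began 38 bases after the start and lies outside the stretch shown. Nop2, an RNA methyltransferase of the large subunit, had its canonical E-box beginning 60 bases before the start. The median day 3 difference was 0.48 for the 5 members with the canonical E-box and 0.73 for the 23 without it. Members with the variant ranged from 0.11 (Mycl) to 1.51 (Nolc1), and those with neither motif from -0.97 (Mxd1) to 0.98 (Ncl). A relation between motif and difference was not tested.

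The first comparison asked how the members differed between embryoid bodies of day 3 and undifferentiated cells. Of the 35 members, 34 were higher at day 3, where 56.7% of all genes were, and 3 of them rose past the threshold: Myc, Nolc1 and Srm. The threshold was an adjusted p under 0.05 in limma's additive model of line and day, with Benjamini-Hochberg adjustment over all 15028 genes. Of all genes tested, 1.82% were called higher and 2.19% lower, or 4.01% in either direction. A further 16 members had an unadjusted p under 0.05 without passing the adjustment, 19 in all, where 26.2% of all genes had one. The member median difference was 0.70 on the log2 scale (range -0.97 to 1.64), and the median of all genes was 0.09.

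Myc, the founding member of the family, read 8.43, 10.44 and 8.70 log2 units at days 0, 3 and 7 in the PKM1 knock-in line. In the PKM2 knock-in line it read 9.95, 10.76 and 9.89, and in the wild-type line 8.20, 10.30 and 9.06. Day 3 was the highest day in every line, and no day 3 array overlapped the day 0 arrays. The PKM2 knock-in array of day 0 stood well above the other day 0 arrays, which left the smallest difference in that line. The mean was 10.50 ± 0.24 at day 3 and 8.86 ± 0.95 at day 0 (SD, n = 3 each). Myc rose by 1.64 ± 0.30 log2 units (SE), 3.12-fold, with an adjusted p of 0.0424 by limma. Within lines the fold was 4.04 in the PKM1 knock-in, 1.76 in the PKM2 knock-in and 4.27 in wild type.

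Nolc1, a nucleolar phosphoprotein that chaperones snoRNPs, read 12.94, 14.43 and 12.59 at days 0, 3 and 7 in the PKM1 knock-in line. The values were 13.15, 14.05 and 13.37 in the PKM2 knock-in line and 12.07, 14.21 and 12.36 in wild type. The 3 arrays of day 3 lay close together and above every array of day 0. Nolc1 rose by 1.51 ± 0.30 log2 units, 2.85-fold, with an adjusted p of 0.0482 by limma. A second, dimmer Nolc1 probe was higher at day 3 in each line, by 0.51 on average, but its day 3 and day 0 groups overlapped. It read 10.63, 10.99 and 10.54 at day 3 (PKM1 knock-in, PKM2 knock-in, wild type). At day 0 it read 10.32, 10.64 and 9.68 in these lines.

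Srm encodes spermidine synthase, an enzyme of polyamine synthesis and a well known Myc target. Its PKM1 knock-in arrays read 13.55, 14.83 and 13.18 at days 0, 3 and 7, its PKM2 knock-in arrays 13.40, 14.53 and 13.72, and its wild-type arrays 13.01, 14.80 and 13.39. The day 3 arrays again lay above all others. Srm rose by 1.40 ± 0.24 log2 units, 2.63-fold, with an adjusted p of 0.0386 by limma, the smallest of all members. Its second probe gave a mean difference of 1.34.

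The calls of all 3 genes were near the threshold. They were lost for all 3 when the slide was added as a block (adjusted p 0.0554 for Srm, 0.0632 for Nolc1 and 0.0698 for Myc) or when dim probes were kept in the adjustment (0.0694 to 0.0846). Calls over all genes moved too, with 578 genes called with the slide as a block and 151 with dim probes kept, against 602. No member was called after removal of the wild-type or PKM1 knock-in line, where no gene of the whole array was called either, while 1 member among 284 genes was called without the PKM2 knock-in line. No member was called after removal of any single array except those of the knock-in lines at day 7, and where no member was called 2 to 163 genes were. The sizes kept their sign throughout, between 1.40 and 2.05 for Myc, 1.01 and 1.86 for Nolc1, and 1.12 and 1.58 for Srm. On slide 1, which held both the day 3 and the day 0 array of the PKM2 knock-in line, the differences were 0.81 for Myc, 0.91 for Nolc1 and 1.13 for Srm.

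**Figure D1:**
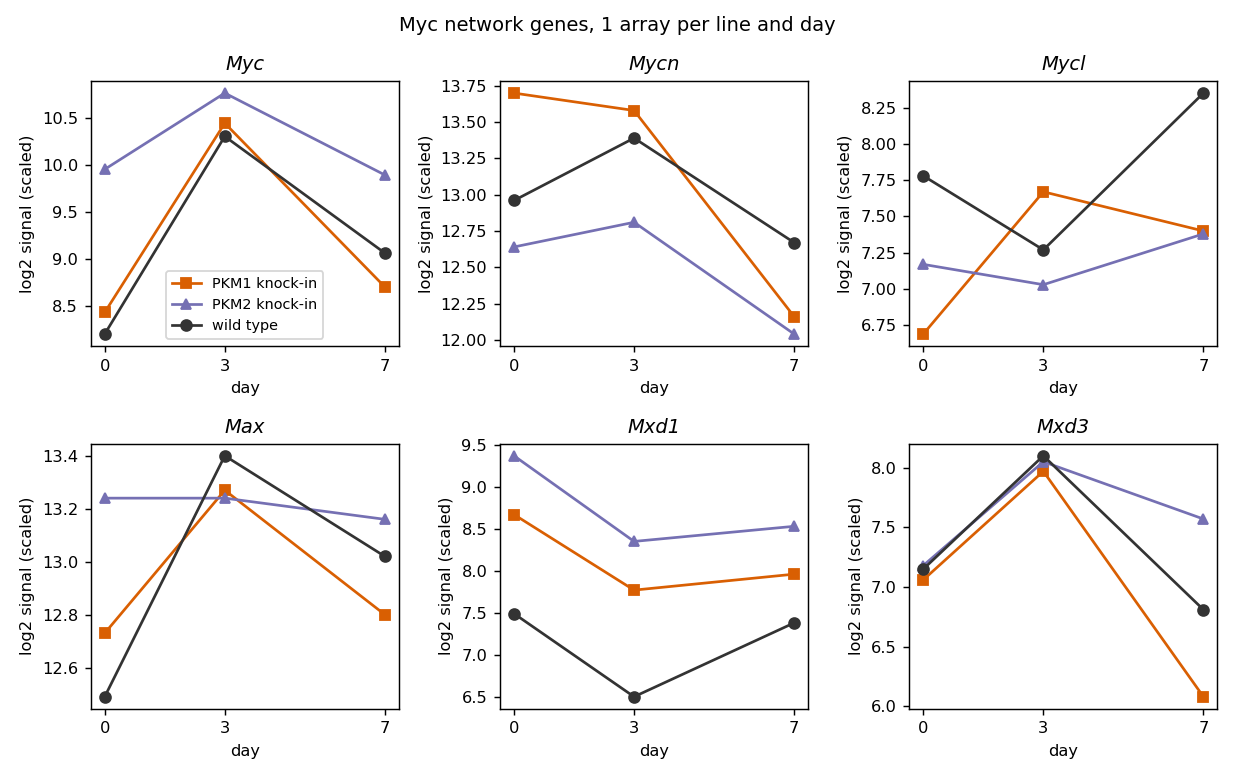
Scaled log2 signal of the 6 Myc network members by day (x axis, days), with 1 point per array and a line for each cell line. Myc was highest at day 3 in every line, from 10.30 to 10.76, while Mxd1 (brighter probe) was lowest there.

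Of the other 5 Myc network members 4 were higher at day 3 on average and 1 lower, and none passed the adjustment. Mycn, the paralog that ES cells express strongly, read 13.70, 13.58 and 12.16 at days 0, 3 and 7 in the PKM1 knock-in line. It read 12.64, 12.81 and 12.04 in the PKM2 knock-in line and 12.96, 13.39 and 12.67 in wild type. Its lowest value in each line was at day 7, and days 0 and 3 overlapped. The day 3 difference was 0.16 ± 0.27 (adjusted p 0.737 by limma). Mycl was dim, with 6.69, 7.67 and 7.40 on the PKM1 knock-in arrays of days 0, 3 and 7, with 7.17, 7.03 and 7.38 on the PKM2 knock-in arrays, and with 7.78, 7.27 and 8.35 on the wild-type arrays. Its days overlapped in every comparison, and its day 3 difference was 0.11 ± 0.32.

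Max, the shared partner, was 0.48 ± 0.22 higher at day 3 (adjusted p 0.231 by limma), with differences of 0.54 in the PKM1 knock-in, -0.01 in the PKM2 knock-in and 0.91 in wild type. Mxd3, whose product pairs with Max in dividing cells, read 7.97, 8.05 and 8.10 at day 3 and 7.06, 7.18 and 7.15 at day 0 in the PKM1 knock-in, PKM2 knock-in and wild-type lines. These groups did not overlap, yet the difference of 0.91 ± 0.30 had an adjusted p of 0.129 by limma. At day 7 the Mxd3 values were 6.08, 7.57 and 6.81 in these lines. Mxd1 was the 1 member lower at day 3. Its brighter probe read 7.77, 8.35 and 6.50 at day 3, against 8.67, 9.37 and 7.49 at day 0, in the same order of lines. It was lower by nearly the same amount in each line, and the mean difference of -0.97 ± 0.22 had an adjusted p of 0.0629 by limma. The dimmer Mxd1 probe did not share this and was 0.17 higher at day 3 on average. The 2 probes of Nip7 also differed in sign (0.77 and -0.70). The probes of the other 8 members with several probes were higher at day 3 on average, so 46 of the 48 probes were.

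Among the 8 box C/D and H/ACA snoRNP genes all were higher at day 3 on average and 1, Nolc1, passed the test. Nhp2, a core H/ACA protein, read 16.63, 16.34 and 16.38 at day 3, against 15.37, 15.39 and 14.80 at day 0, in the PKM1 knock-in, PKM2 knock-in and wild-type lines. All day 3 values exceeded all day 0 values, and the difference was 1.26 ± 0.27 (adjusted p 0.0563 by limma). Rrp9, the protein specific to the U3 particle, was 0.70 ± 0.29 higher and Gar1, another H/ACA protein, 0.55 ± 0.24. The core box C/D proteins differed less, with 0.31 for the methyltransferase fibrillarin (Fbl), 0.30 for Nop56 and 0.05 for Nop58. Dkc1, the pseudouridine synthase of the H/ACA particle, had a difference of 0.21 ± 0.44, the widest error of any member.

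On the brightest probe of each, all 6 genes assigned to the small subunit were higher in every line, with groups that did not overlap. None passed the adjustment. Ddx21, a nucleolar RNA helicase, read 13.72, 13.02 and 13.38 at day 3 and 12.08, 12.27 and 11.54 at day 0 in the PKM1 knock-in, PKM2 knock-in and wild-type lines. The difference was 1.41 ± 0.35 (adjusted p 0.0751 by limma), and its second probe gave 0.77. Rcl1 and Rrp12, processing and export factors of the 40S precursor, were higher by 0.82 ± 0.23 and 0.81 ± 0.24. Bysl, Wdr43 and Utp20, further parts of the 40S maturation machinery, had differences of 0.73, 0.60 and 0.45. The second Wdr43 probe gave 0.25 with overlapping groups, and in the PKM2 knock-in line it read 12.18 at day 3 against 12.22 at day 0.

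On the brightest probe of each, the 9 large subunit genes were all higher on average and 7 of them had groups that did not overlap. The differences were 0.88 for Wdr12, 0.75 for Bop1 and 0.48 for Pes1, which together form the PeBoW complex. They were 0.82 for Nop16, 0.77 for Nip7, 0.74 for Nop2, 0.73 for Noc2l and 0.33 for Ppan. Rrs1, which helps load the 5S particle, had a difference of 0.06, with -0.25 in the PKM2 knock-in line. None of the 9 passed the adjustment, and the smallest adjusted p was 0.112 by limma, for Nop2.

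Both RNA polymerase I subunits were higher in every line, by 0.76 ± 0.23 for Polr1b and 0.57 ± 0.23 for Polr1a. Of the nucleolar phosphoproteins, nucleolin (Ncl) read 16.32, 16.11 and 16.52 at day 3, against 15.19, 15.78 and 15.04 at day 0, in the PKM1 knock-in, PKM2 knock-in and wild-type lines. The difference was 0.98 ± 0.25 (adjusted p 0.0797 by limma). The second, dimmer Ncl probe gave 0.57 with overlapping groups, and in the PKM2 knock-in line it read 11.91 at day 3 against 12.05 at day 0. Nucleophosmin (Npm1) differed by 0.41 and nucleostemin (Gnl3) by 0.34, with all 5 Npm1 probes between 0.41 and 0.67.

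Counted over members, 26 of 35 were higher at day 3 in all 3 lines, where 33.5% of all genes were. For 24 members every day 3 array was above every day 0 array on the brightest probe, against 21.9% of all genes. No member had the reverse on that probe. On the dimmer Nip7 probe all day 3 arrays were below all day 0 arrays. It read 10.01, 9.99 and 9.86 at day 3 (PKM1 knock-in, PKM2 knock-in, wild type). At day 0 it read 10.90, 10.92 and 10.15 in these lines. The median member difference was 0.56 in the PKM1 knock-in line, 0.39 in the PKM2 knock-in line and 1.01 in wild type. Members higher at day 3 numbered 33, 27 and 33 in these lines. On slide 1 alone the PKM2 knock-in line gave a member median of 0.39 and an all-gene median of 0.04. The scaling bears on these counts. With the percentile taken over detected probes, the member median was 0.53 and 30 members were higher, while the all-gene median was -0.08. Under that scaling 192 genes were called higher and 438 lower, against 273 and 329 in the main setting. With normexp background correction the split was 559 higher and 368 lower. The member median minus the all-gene median was 0.46 to 0.70 under every background correction, scaling, filter, floor and probe rule tried.

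**Figure D2:**
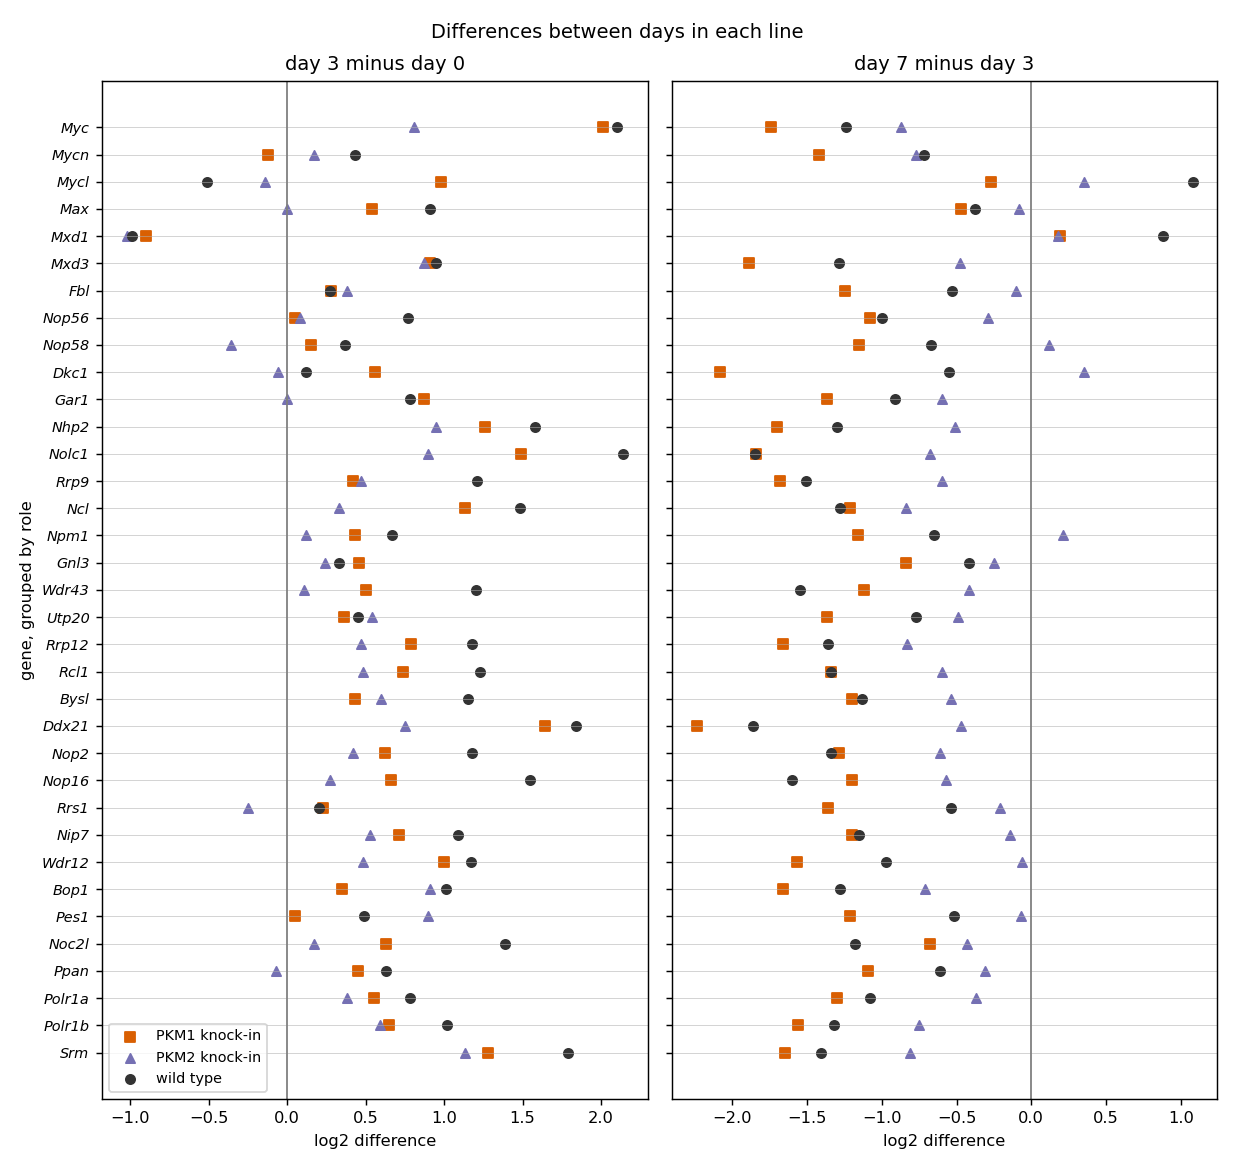
Log2 difference of each member (y axis) in each line, day 3 minus day 0 on the left and day 7 minus day 3 on the right, with 1 symbol per line. On the left most symbols lie right of 0, with Mxd1 left of it in all 3 lines, and on the right most lie left of 0, with the PKM2 knock-in symbols nearest to 0 for most genes.

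Markers of other cell types differed between the days as well. All 14 fibroblast and feeder cell markers tested were lower at day 3 than at day 0, with a median of -2.30 log2 units, and 5 were called lower. Their summed signal was 36500 to 52400 at day 3 and 67500 to 84300 at day 0. Lum, Pdgfra, Ptx3 and Postn were not well above background on any day 3 array. At day 0 this already held for Postn in the PKM1 knock-in and wild-type lines, and for Lum and Ptx3 in the PKM2 knock-in line. Of all 15 such markers, 9 to 11 were well above background on the day 3 arrays and 13 or 14 on the day 0 arrays. Of the 8 ES cell markers Klf4 was called lower (-2.13 ± 0.28, adjusted p 0.023 by limma), and the summed ES marker signal was 342000 to 389000 at day 3 and 381000 to 464000 at day 0. The part of these shifts in the members' differences was not tested.

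Gene lists of the same pathways outside the members were set beside them, by counts only. In the small subunit processome and 40S assembly list, 41 of 46 genes were higher at day 3 and 5 lower, with a median of 0.50. All 42 genes of the 60S assembly list were higher, with a median of 0.56. In the RNA polymerase I list 10 of 11 genes were higher, with a median of 0.45. The snoRNP assembly list had 10 of 11 higher (median 0.59) and the polyamine and nucleotide synthesis list 14 of 16 (median 0.63). Znhit6 (0.45) was counted in both the RNA polymerase I list and the snoRNP assembly list. No gene of these 5 lists passed the adjustment in limma, where 4.01% of all genes did. Of their 126 entries, 55 had an unadjusted p under 0.05, where 26.2% of all genes had one. Wdr55, a 60S factor, came nearest (1.15 ± 0.24, adjusted p 0.0551), followed among the lists by Naf1, an H/ACA assembly factor (0.93 ± 0.21, 0.0607). Atic, an enzyme of purine synthesis, was 1.22 ± 0.27 higher and Taf1a, a part of the polymerase I selectivity factor, 0.89 ± 0.23 higher.

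The structural ribosomal proteins did not share this shift. Of 76 ribosomal protein genes, 38 were higher and 38 lower at day 3, with a median of 0.00, and none was called. None had an unadjusted p under 0.05 by limma either, where 26.2% of all genes had one. Their line medians were -0.15 in the PKM1 knock-in, -0.10 in the PKM2 knock-in and 0.24 in wild type, and with the percentile over detected probes their median was -0.17 and 10 were higher. Genes of DNA replication and mitosis were nearer to the members, with 23 of 26 higher and a median of 0.44. By line their median was 0.56 in the PKM1 knock-in, 0.10 in the PKM2 knock-in and 0.68 in wild type. In these lines 24, 15 and 24 of the genes were higher. Cyclin E1 (Ccne1), which drives entry into S phase, was 1.78 ± 0.37 higher with an adjusted p of 0.0508 by limma. Partners of the Myc network outside the members were split, 3 higher and 3 lower, with a median of 0.24.

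**Figure D3:**
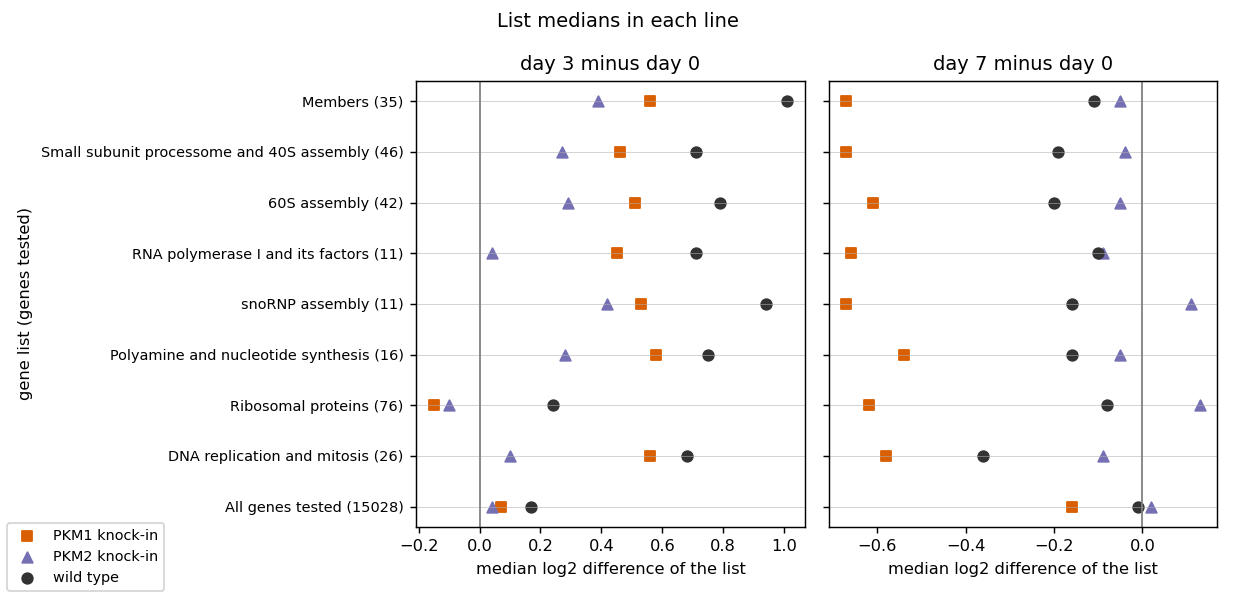
Median log2 difference of each gene list (y axis, with the number of genes tested) in each line, day 3 minus day 0 on the left and day 7 minus day 0 on the right, with 1 symbol per line. At day 3 the member medians were 0.56, 0.39 and 1.01 in the PKM1 knock-in, PKM2 knock-in and wild-type lines, while those of ribosomal proteins lay between -0.15 and 0.24.

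The second comparison set day 7 against day 3. It shares the day 3 arrays with the first, so a gene high at day 3 by error differs in both. Of the 35 members, 33 were lower at day 7 and 2 higher, where 41.9% of all genes were higher. The member median was -0.96 (all genes -0.13). No member passed the adjustment in limma, and neither did any of the 15028 genes (0%). At an unadjusted p under 0.05 there were 27 members and 4551 genes (30.3%). Members lower at day 7 in all 3 lines numbered 30, where 33% of all genes were, and for 25 every day 7 array was below every day 3 array, where 21.6% of all genes were.

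Rrp12 had the smallest p. At days 0, 3 and 7 its PKM1 knock-in arrays read 9.20, 9.99 and 8.33, its PKM2 knock-in arrays 9.45, 9.92 and 9.09, and its wild-type arrays 8.59, 9.77 and 8.41. In each line the day 7 value was the lowest. The difference from day 3 was -1.29 ± 0.24 with an adjusted p of 0.0739 by limma. For Srm, whose values are given above, it was -1.29 ± 0.24 (0.0743), for Nolc1 -1.46 ± 0.30 (0.0783) and for Myc -1.28 ± 0.30 (0.0833). Ddx21 had the largest difference of any member, -1.53 ± 0.35 (0.0825). Polr1b, Rrp9 and Bop1 followed among the processing and transcription genes with -1.21, -1.27 and -1.21. Mxd1 (0.41) and Mycl (0.39) were the 2 members higher at day 7. Of the pathway lists, 45 of 46 small subunit genes, all 42 large subunit genes and 25 of 26 genes of DNA replication and mitosis were lower at day 7, with medians of -0.80, -0.79 and -0.81. Ribosomal proteins had 70 of 76 lower with a median of -0.19, whereas quantile normalization gave 39 higher and a median of 0.00. By line their median was -0.46 in the PKM1 knock-in, 0.21 in the PKM2 knock-in, where 73 of 76 were higher at day 7, and -0.34 in wild type, and 3 genes were lower in all 3 lines.

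The lines differed in size here. The member median was -1.30 in the PKM1 knock-in line, -0.47 in the PKM2 knock-in line and -1.14 in wild type, and this difference between lines was not tested because there was 1 array for each. Without the PKM2 knock-in line 14 members were called among 1439 genes in all, and without its day 7 array alone 17 among 2379, where none of the 15028 genes was called with all arrays. That array was the only one on slide 3, so its slide and its sample cannot be told apart. Dkc1 shows the spread: it read 9.78 at day 7 in the PKM1 knock-in line, 12.02 in the PKM2 knock-in line and 11.01 in wild type, against 11.86, 11.67 and 11.56 at day 3. Its PKM1 knock-in value was far below the day 3 arrays and its PKM2 knock-in value above them. With the slide as a block, which leaves out the array of slide 3, 1 member was called, Mxd3 (-1.58, adjusted p 0.0428 by limma), among 976 genes in all.

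**Figure D4:**
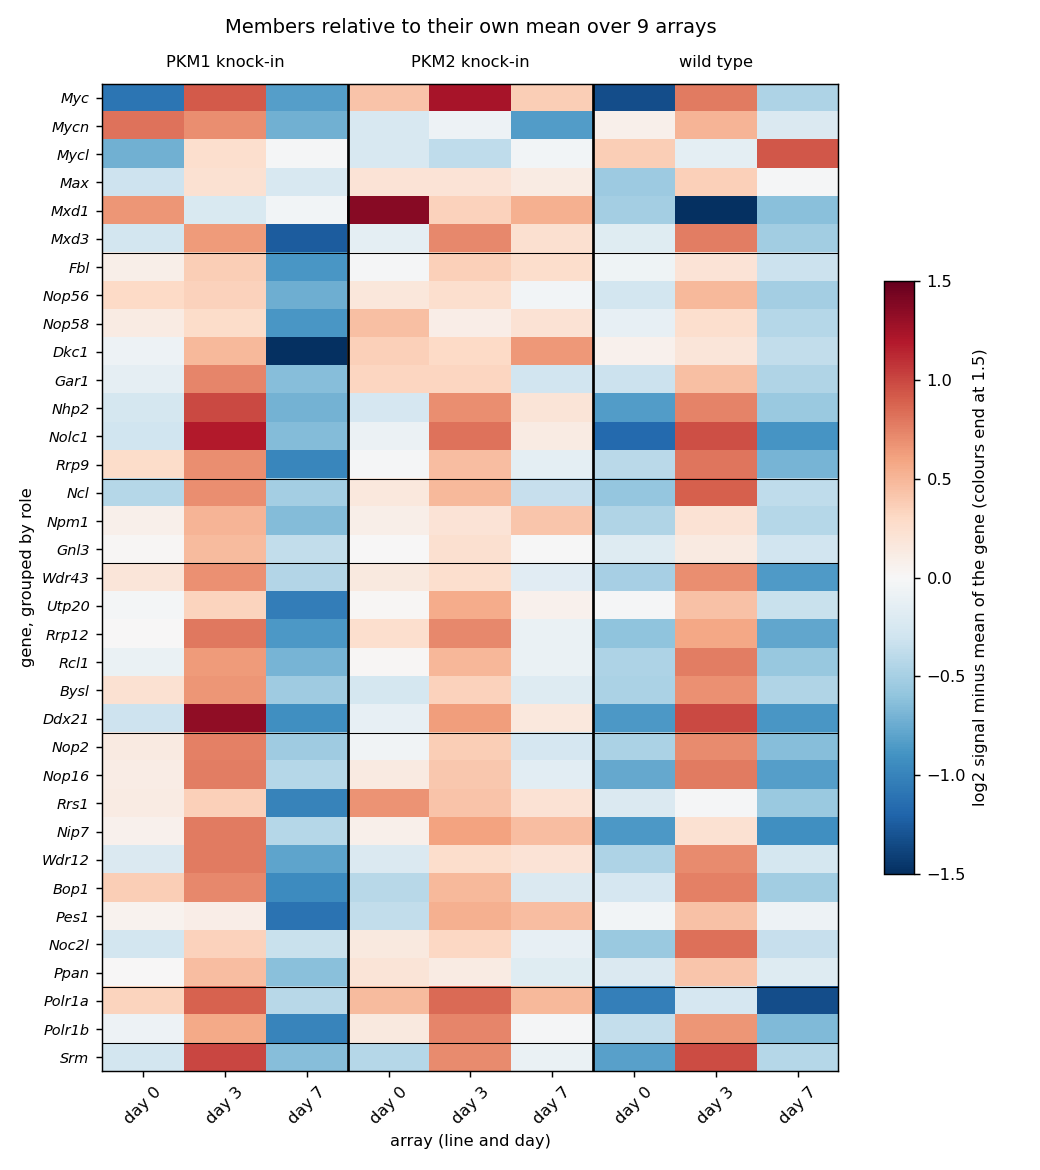
Log2 signal of each member minus its own mean over the 9 arrays, with genes in rows grouped by role and arrays in columns by line and day (red above, blue below the mean). The day 3 columns are mostly red, the wild-type columns of days 0 and 7 and the PKM1 knock-in column of day 7 mostly blue, and the PKM2 knock-in columns paler.

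Relative to each gene's own mean over the 9 arrays, the median member stood at 0.01, 0.66 and -0.70 at days 0, 3 and 7 in the PKM1 knock-in line. It stood at 0.07, 0.40 and -0.01 in the PKM2 knock-in line and at -0.46, 0.57 and -0.46 in wild type. Day 3 was thus the highest day for the median member in each line. Taken gene by gene, it was the highest day for 33, 26 and 33 members in the PKM1 knock-in, PKM2 knock-in and wild-type lines, against 41.5%, 37.3% and 49% of all genes. Day 7 was the lowest for 31, 17 and 22 members in these lines, and the share of all genes lowest on that day was not tabulated.

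The third comparison set day 7 against day 0. Members were on average slightly lower in day 7 embryoid bodies, with a median of -0.31 (all genes -0.04), 28 lower and 7 higher, where 46.6% of all genes were higher. None was called, where 0.0998% of all genes were, and 3 had an unadjusted p under 0.05 by limma, where 14.3% of all genes did. These were Mycn (-0.81 ± 0.27, adjusted p 0.261), Mxd1 (-0.56 ± 0.22, 0.324) and Rrs1 (-0.65 ± 0.26, 0.329). The dimmer Mxd1 probe differed by 0.07, with the opposite sign. No member had day 7 and day 0 arrays that did not overlap, where 6.85% of all genes were higher and 8.94% lower without overlap. The Mycn difference was -1.55 log2 units in the PKM1 knock-in line, -0.60 in the PKM2 knock-in line and -0.29 in wild type. Rrs1 read 11.13, 12.35 and 11.57 at day 7 and 12.26, 12.81 and 11.91 at day 0 in these lines, lower in each but with overlapping groups. Myc itself was 0.36 ± 0.30 higher, with a difference of -0.05 in the PKM2 knock-in line.

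By line, the member median was -0.67 in the PKM1 knock-in, -0.05 in the PKM2 knock-in and -0.11 in wild type. Members lower in all 3 lines numbered 14, where 20.6% of all genes were, and Mycl, 0.50 ± 0.32 higher, was the only member higher in all 3. On single slides the member median was -0.67 in the PKM1 knock-in line (slide 2) and -0.11 in wild type (slide 1). Visceral endoderm markers differed most between these same arrays. Their summed signal at day 7 was 504000 in the PKM1 knock-in line, 3810 in the PKM2 knock-in line and 10600 in wild type, against 848 to 1030 at day 0. All 13 of these markers were well above background in the PKM1 knock-in line at day 7, whereas Afp and Ttr were not above background on any array of day 0 or day 3. ES marker signal at day 7 was 186000 in the PKM1 knock-in, 419000 in the PKM2 knock-in and 277000 in wild type. The part of these marker differences in the members' differences was not tested.

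In the pathway lists, 44 of 46 small subunit genes, 37 of 42 large subunit genes and 23 of 26 genes of DNA replication and mitosis were lower at day 7 than at day 0. Their medians were -0.27, -0.29 and -0.35. Ribosomal proteins had 75 of 76 lower with a median of -0.19, but quantile normalization gave a median of -0.03 with 32 higher. The lines did not share this direction, since the ribosomal protein median was -0.62 in the PKM1 knock-in line, 0.13 in the PKM2 knock-in line, where 64 of 76 were higher, and -0.08 in wild type. None of these genes was called in limma, where 0.0998% of all genes were. In the order given, 5, 0, 1 and 0 of them had an unadjusted p under 0.05 by limma, where 14.3% of all genes did.

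The lines were then compared over the days. In the PKM1 knock-in line 22 members were higher than in wild type and 13 lower, where 55.6% of all genes were higher, with a median of 0.10 (all genes 0.05). In the PKM2 knock-in line 32 were higher than in wild type and 3 lower, where 53.7% of all genes were higher, with a median of 0.24 (all genes 0.04). No member was called in either comparison, where 0.0133% of all genes were called in each. By limma 3 members had an unadjusted p under 0.05 in the PKM1 knock-in comparison, where 12.3% of all genes did, and 6 in the PKM2 knock-in comparison, where 13.4% did. Both comparisons share the wild-type arrays. The direction of the first median was not stable, since quantile normalization gave -0.02 with 14 members higher.

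Polr1a, the largest subunit of RNA polymerase I, had the smallest p against wild type in the PKM1 knock-in line and the second smallest in the PKM2 knock-in line. At days 0, 3 and 7 its PKM1 knock-in arrays read 12.56, 13.11 and 11.81, its PKM2 knock-in arrays 12.70, 13.08 and 12.71, and its wild-type arrays 11.20, 11.98 and 10.90. Every PKM2 knock-in array was above every wild-type array, and 1 PKM1 knock-in array, that of day 7, fell within the wild-type range. The difference was 1.14 ± 0.23 in the PKM1 knock-in (adjusted p 0.165 by limma) and 1.47 ± 0.23 in the PKM2 knock-in (0.119). Its partner subunit Polr1b did not share this, with differences of -0.05 and 0.41.

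Mxd1 differed in the same way. At days 0, 3 and 7 its brighter probe read 8.67, 7.77 and 7.96 on the PKM1 knock-in arrays, 9.37, 8.35 and 8.53 on the PKM2 knock-in arrays, and 7.49, 6.50 and 7.38 on the wild-type arrays. Both knock-in lines lay above wild type on every day without overlap. The differences were 1.01 ± 0.22 (adjusted p 0.174 by limma) and 1.63 ± 0.22 (0.112). The dimmer probe gave 1.05 and 1.09, so both Mxd1 probes separated the lines although they differed over the days. Nip7, a factor of 60S maturation, was 0.66 ± 0.26 and 0.90 ± 0.26 higher on its brighter probe and 0.31 and 0.37 on its dimmer one.

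**Figure D5:**
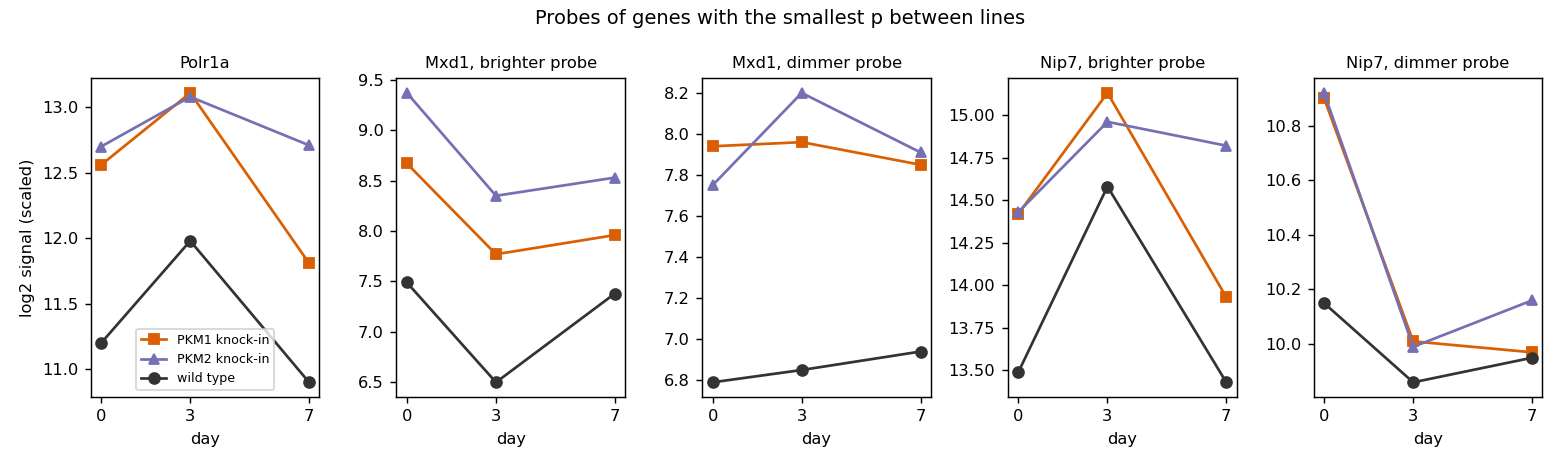
Scaled log2 signal by day (x axis, days) of the probes of Polr1a, Mxd1 and Nip7, with 1 point per array and a line for each cell line. Wild type is the lowest line in each panel on every day, whereas the pattern over the days differs between the probes of Mxd1 and of Nip7.

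The other members with an unadjusted p under 0.05 between the PKM2 knock-in and wild type were Myc (1.01 ± 0.30, adjusted p 0.229 by limma), Rrs1 (0.71 ± 0.26, 0.31) and Rrp12 (0.57 ± 0.24, 0.37). For Myc the difference was 1.74 at day 0, 0.46 at day 3 and 0.83 at day 7. Rrs1, Myc and Rrp12 each had 1 probe. Members with PKM2 knock-in arrays all above wild type numbered 4, where 7.93% of all genes were. In the PKM1 knock-in comparison 1 member did, where 5.49% of all genes were.

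The line medians changed sign over the days. Between the PKM2 knock-in and wild type the member median was 0.51 at day 0, -0.15 at day 3 and 0.56 at day 7, with 31, 12 and 33 members higher. Between the PKM1 knock-in and wild type it was 0.36, 0.06 and -0.22, with 31, 21 and 8 members higher. The medians of all genes on these days were 0.08, -0.05 and 0.11 for the PKM2 knock-in and 0.12, 0 and -0.02 for the PKM1 knock-in. Of the 15028 genes, 8430, 6777 and 8617 were higher in the PKM2 knock-in and 8932, 7509 and 7360 in the PKM1 knock-in. The day 0 pair of PKM2 knock-in and wild type lay on 1 slide, and its member median was that 0.51. No pair of PKM1 knock-in and wild-type arrays of the same day shared a slide.

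Between the knock-in lines, 28 members were higher in the PKM2 knock-in than in the PKM1 knock-in and 7 lower, where 49.2% of all genes were higher, with a median of 0.20 (all genes -0.01). None was called, as for all genes tested (0%), and 3 had an unadjusted p under 0.05 by limma, where 7.94% of all genes did. These were Myc (1.01 ± 0.30), Mxd1 (0.62 ± 0.22) and Mycn (-0.65 ± 0.27), each with an adjusted p of 0.628. The dimmer Mxd1 probe differed by 0.03, so the Mxd1 value rests on the brighter probe. Myc and Mycn thus differed in opposite directions, with Mycn differences of -1.06, -0.76 and -0.12 at days 0, 3 and 7. The member median was 0.12 at day 0, -0.21 at day 3 and 0.76 at day 7 (all genes -0.04, -0.06 and 0.14). Both day 3 arrays of these lines lay on slide 1. The day 7 value compares the PKM2 knock-in array, alone on slide 3, with the PKM1 knock-in array on slide 2. Relative to each gene's own mean, the median member stood at -0.01 on the first and -0.70 on the second.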

How the data were processed

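RNA of 9 cultures was labelled with Cy3 and hybridised to 1-colour Agilent arrays. The intensity values are the processed signals that the authors deposited, made with Agilent Feature Extraction 10.10 per the submitters' processing notes, which subtracts background per the file headers. The authors' deposited value table gives the same intensity values within 0.497%.

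Control spots and spots with an outlier flag were left out, spots of a probe were averaged, each array was scaled to its 75th percentile, values under 5 were set to 5, and log2 was taken. Of 55681 probes, 27229 received 1 gene symbol through RefSeq accessions and 28452 received none and were not used. The brightest probe stood for a gene, and genes well above background on at least 3 arrays were tested. An additive model of line and day was fitted with limma 3.58.1 in R 4.3.3 (lmFit, eBayes, Benjamini-Hochberg adjustment over 15028 genes), and genes with an adjusted p under 0.05 were called. The script was tested on simulated data. With 9 arrays, the median SE of a member's day difference was 0.26 log2 units (range 0.19 to 0.44). Depth is not a property of arrays, and their number limits the precision. No column of other samples was present.

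The members and gene lists were chosen with earlier results of these data known. Named in full were Myc, Mycn, Mycl, called members, and the 2 members with the smallest p where none was called. Of each other list, up to 4 called genes or up to 2 genes with the smallest p were to be named. Other members were given array values for illustration after their values were seen. The Myc network partner list, like the marker lists, is described by its counts. Each result was recomputed with quantile normalization, with normexp (offset 50), with the percentile over detected probes, from the authors' value table, with dim probes kept or with a filter on all 9 arrays, with a floor of 20, with the mean of probes, with no block, with only the 6 arrays compared, with slide as a block, and without each array, line or day.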

Additional observations from a re-analysis of the deposited data

Results flagged for a closer look

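Some members differed by at least 0.5 log2 units in opposite directions between lines or days. Values are the later day minus the earlier, or the first line named minus the second. Each value compares 1 array with 1 array, and the difference between the values was not tested. For day 3 minus day 0, Mycl differed by 0.97 in the PKM1 knock-in line and by -0.51 in wild type, at a dim signal. For day 7 minus day 0, Pes1, a PeBoW subunit, differed by -1.15 in the PKM1 knock-in line and by 0.83 in the PKM2 knock-in line. The second Pes1 probe was lower at day 7 in both lines, with 8.41 against 9.01 log2 units in the PKM1 knock-in and 8.69 against 8.86 in the PKM2 knock-in.

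Between the PKM1 knock-in and wild type, Mycn differed by 0.75 at day 0 and by -0.51 at day 7. Between the PKM2 knock-in and wild type, Noc2l differed by 0.70 at day 0 and by -0.52 at day 3. Between the PKM2 and PKM1 knock-in lines, Ddx21 differed by -0.70 at day 3 and 1.07 at day 7, and Wdr12 by -0.52 and 0.99 on the same days. Bop1, which binds Pes1 and Wdr12, differed by -0.79 at day 0 and 0.73 at day 7 in that comparison. The second Ddx21 probe did not show opposite directions of that size, with 12.70 against 12.74 log2 units at day 3 and 12.20 against 11.22 at day 7. All 3 positive values at day 7 compare the same PKM2 knock-in array with the same PKM1 knock-in array.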

How the results depend on the processing

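At day 3 against day 0 the count of members called was 3, among 602 genes in all. It was 7 among 927 with normexp background correction, 0 among 151 with no filter on dim probes and 5 among 666 with a filter on all 9 arrays. It was 1 among 479 with no block for the line, 7 among 1429 with only the 6 arrays compared and 0 among 578 with slide as a block. Leaving out 1 array or line gave 0 to 6, among 0 to 1259. At day 7 against day 3 the count of 0, with 0 genes in all, became 1 among 976 with slide as a block, and 0 to 17 among 0 to 2379 on leaving out an array or line. The filters let fewer or more genes enter the adjustment, and leaving out arrays or lines left fewer arrays. The cause of the changed counts was not tested. In the other 4 comparisons the count was 0 under every alternative. Of the 23 alternatives, the call was lost in 13 for Myc, 15 for Nolc1 and 12 for Srm, with adjusted p up to 0.32, 0.367 and 0.33.

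Leaving out 1 array, line or day moved the member median to between 0.46 and 0.86 for day 3 against day 0, -0.45 and -0.07 for day 7 against day 0, and -1.19 and -0.75 for day 7 against day 3. For the lines it lay between -0.12 and 0.30 for PKM1 knock-in against wild type, 0.11 and 0.47 for PKM2 knock-in against wild type, and -0.07 and 0.45 for PKM2 against PKM1 knock-in. The sign of the first and last of these was therefore not stable. The days were paired by line, as a term of the model, and the fit without it is the one with no block above. The labels carry no replicate numbers that could pair arrays further. Probes near background did not limit the members, which were all well above it.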

Other observations

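Among the Max partners outside the members, Mxd4, a further antagonist of Myc that is known from differentiating cells, had the smallest p at day 7 against day 0. It read 6.48, 7.18 and 8.76 log2 units at days 0, 3 and 7 on the PKM1 knock-in arrays, 7.05, 7.50 and 7.53 on the PKM2 knock-in arrays, and 6.76, 7.58 and 8.58 on the wild-type arrays. All day 7 values lay above all day 0 values, and the value grew over the days in each line. The difference of 1.53 ± 0.36 did not pass the adjustment (adjusted p 0.178 by limma). Mlxip, a glucose-responsive partner of Mlx, was highest at day 3 in each line, with a difference of 0.86 ± 0.25 from day 0 (adjusted p 0.0989 by limma).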
